A study of Mus musculus with 12 samples.

Results

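The comparison set mitotic against asynchronous cells of a mouse B cell lymphoma line whose ribosomal protein RPL12 was wild type (WT). Its 4 libraries, 2 mitotic and 2 asynchronous, were chosen by their genotype and state labels from the 12 libraries of the series. The other 8 libraries came from cells with RPL12 changed at serine 38 to alanine (S38A) or aspartate (S38D), with 4 libraries of each. The line, labelled 19PP, was derived from a Rag2-/-γC-/- mouse that had received bone marrow carrying Cγ1-Cre and the alleles written as Myc/P110*flSTOP, so every group shares that background. Cγ1-Cre is a driver active mainly in activated, germinal centre B cells. The culture used was 19DN, a sorted subline that no longer carried the GFP and hCD2 reporters after Flp was expressed, and the labels do not say how many clones each genotype rests on. WT mitotic cells were held for 8 hr in nocodazole at 100 ng/mL, washed, and given fresh medium for 10 min before harvest. The asynchronous cells carry no such label, so the state of the cell cycle, the drug and the change of medium cannot be told apart in this comparison.

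Ribosome profiling counts the fragments of mRNA that translating ribosomes shield from nuclease, so a gene's footprint level joins the amount of its mRNA with how heavily that mRNA is translated. Nocodazole keeps tubulin from assembling into microtubules, and cells without a spindle are held in mitosis by the spindle checkpoint. Transcription is largely shut off in mitosis and protein synthesis is generally held to be lowered, with some mRNAs affected more than others. RPL12, also named uL11, sits at the base of the ribosomal stalk, where elongation and other GTPase factors bind.

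The 2 WT mitotic libraries held 300205 and 393141 reads in coding sequence, and the 2 WT asynchronous libraries held 258354 and 302808. In WT mitotic libraries 9578 and 9706 gene IDs had at least 1 read, against 9362 and 9491 in WT asynchronous libraries. A single read was worth 3.35 and 2.59 CPM (counts scaled to 1e+06 reads of tested genes) in the mitotic and 3.91 and 3.32 CPM in the asynchronous libraries, after scaling by TMM, a correction for a few genes taking up much of a library. Nothing in the labels says that the 2 libraries of a group were grown separately, so p-values here rest on a spread that may be technical. The files give genes as Ensembl IDs without names, and the reference table paired none of them with a symbol, so neither RPL12 nor the markers of B cells and of other cell types could be looked up. Genes are therefore given by ID and without a function.

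The 2 WT asynchronous libraries differed from each other more than the 2 mitotic ones. A chi-square test of their counts gave 1.88 per degree of freedom over 5184 genes in the asynchronous pair and 1.183 over 5738 genes in the mitotic pair, where sampling noise alone gives about 1. Over 4259 well-covered genes, log2 CPM correlated across genes at 0.955 between the mitotic and 0.934 between the asynchronous libraries. A mitotic and an asynchronous library correlated at 0.835 to 0.862 over the same genes. Genes are not independent replicates, and these correlations are descriptions.

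Mitotic WT cells differed from asynchronous ones in many genes by modest amounts. Of 6692 genes tested, 1231 passed an adjusted p of 0.05 (18.4% of those tested, edgeR quasi-likelihood test). There were 611 genes with more footprints in mitotic cells (9.13%) and 620 with fewer (9.26%). The median log2 change was 0.93 among the higher and -0.95 among the lower genes, while that of all genes tested was -0.0037. Less than a 2-fold change was seen in 690 of the called genes, which is 56.1% of them. At least a 2-fold rise was found in 268 genes and at least a 2-fold fall in 273. Changes of 4-fold or more were rarer, with 24 genes higher and 19 lower.

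The number of genes called depended on single libraries and on the test used. It was 709 without WT mitotic replicate 2, 673 without WT asynchronous replicate 2 and 608 with DESeq2, which gave no adjusted p for 2984 of the genes. The number called at least 2-fold higher also moved with the library left out, to below or above that of the full fit. The values are relative to a common total, so equal numbers of higher and lower genes say nothing about the total of footprints per cell. In such bulk libraries fewer cells with a gene's footprints and fewer footprints per cell cannot be told apart.

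**Figure D1:**
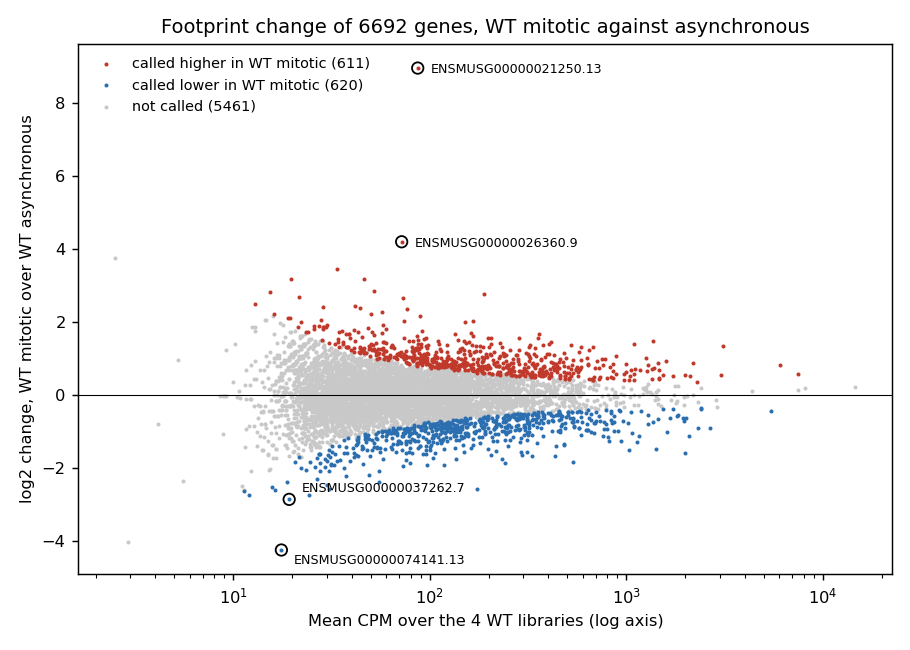
Each point is 1 of 6692 genes, with its mean CPM over the 4 WT libraries on a log axis and its fitted log2 change, WT mitotic over WT asynchronous, on the vertical axis. Red points are the 611 genes called higher, blue points the 620 called lower, and circles mark the 4 genes named in the text. The fitted value of 8.95 for ENSMUSG00000021250.13 rests on 0 reads in asynchronous cells and is not a measure of fold.

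Calls were more frequent among genes with more footprints. Among the 306 genes with a mean of 500 CPM or more, the 2 mitotic libraries differed by a median of 0.11 on the log2 scale and the 2 asynchronous ones by 0.16, while the means of the states differed by 0.44. In this class 55.9% of genes were called, 83 higher and 88 lower, and the smallest called change was 0.35. Only 16.4% of these calls reached 2-fold.

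Genes with few footprints gave another picture. Among the 2172 genes between 20 and 50 CPM, the 2 mitotic libraries differed by a median of 0.37 and the 2 asynchronous libraries by 0.42. The means of the states differed by 0.41. Means of 2 libraries vary less than single libraries, so in both classes the value between states is not directly comparable with those between libraries. Of these genes 5.80% were called, 60 higher and 66 lower, and no change under 1.06 on the log2 scale was called in the class. Both directions were found in every class of level, for example 140 higher and 122 lower genes between 50 and 100 CPM.

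**Figure D2:**
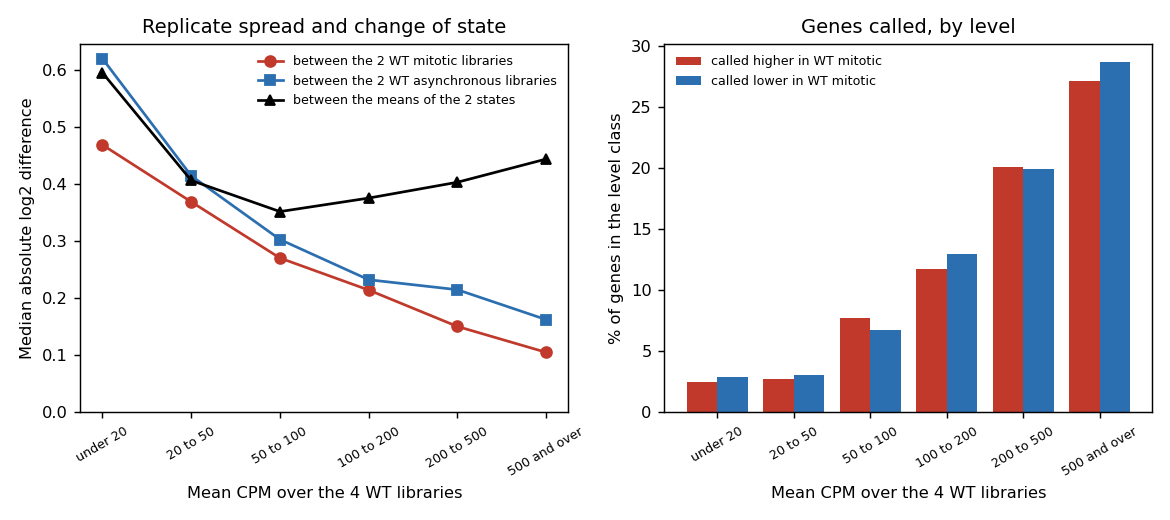
The left plot gives median absolute log2 differences for 6 classes of mean CPM over the 4 WT libraries. They are taken between the 2 WT mitotic libraries, between the 2 WT asynchronous libraries and between the means of the states. Means of 2 libraries vary less than single libraries, so the last is not directly comparable with the others. The right plot gives the percent of genes in each class that were called higher or lower in WT mitotic cells, which in total grows to 55.9% at 500 CPM and over.

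The largest rise was that of ENSMUSG00000021250.13. This gene had 48 and 72 reads in the WT mitotic libraries and 0 reads in both WT asynchronous libraries. In normalised values this was 161 and 187 CPM in mitotic cells and 0 CPM in asynchronous cells. The groups lay far apart, and mitotic cells were at least 32.4-fold higher when the asynchronous libraries together are set at a floor of 3 reads (adjusted p = 2.27e-14, edgeR). The gene also rose in the mutants, with 269 ± 1.19 CPM in mitotic and 1.62 ± 2.29 CPM in asynchronous S38A cells, and 192 ± 11.9 CPM in mitotic and 6.40 ± 0.346 CPM in asynchronous S38D cells (SD, n = 2 each).

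ENSMUSG00000026360.9 had the next largest rise. It had 40 and 54 reads in WT mitotic libraries and 1 and 3 reads in WT asynchronous libraries, or 134 and 139.9 CPM against 3.91 and 9.95 CPM. The mitotic libraries lay close together and far above the asynchronous ones. The log2 change was 4.19 ± 0.46 (SE worked back from the F test, as are all SEs here, adjusted p = 1.05e-10, edgeR). The ratio of all coding reads was 19.0, with a counting interval at 95% of 7.19 to 71.3. The log2 change was 4.99 without WT asynchronous replicate 2. Its log2 change was 3.90 ± 0.36 in S38A and 3.39 ± 0.39 in S38D cells (SE). The change in WT cells exceeded the mean of the mutants by 0.55 ± 0.74 (SE), which was not called (adjusted p = 0.928, edgeR).

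Of the genes that fell, ENSMUSG00000074141.13 fell most. It had 0 and 1 reads in WT mitotic libraries and 8 and 11 reads in WT asynchronous libraries. The mitotic libraries were at 0 and 2.59 CPM, below the asynchronous ones at 31.3 and 36.5 CPM. The ratio of mitotic to asynchronous reads was 0.0426, with a counting interval of 0.00103 to 0.268 (adjusted p = 0.000667, edgeR). The fitted log2 change of -4.25 was -6.60 without WT mitotic replicate 2 and -3.55 without WT mitotic replicate 1, since 1 read decides it. In the mutants it fell by 1.83 in S38A and by 1.92 in S38D cells on the log2 scale (adjusted p = 0.0219 and 0.0443, edgeR).

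ENSMUSG00000037262.7 followed it, with 2 and 1 reads in WT mitotic libraries and 8 and 11 reads in WT asynchronous libraries. These were 6.71 and 2.59 CPM in mitotic cells, against 31.3 and 36.5 CPM in asynchronous cells. The ratio of mitotic to asynchronous reads was 0.128, with a counting interval of 0.0242 to 0.434 (adjusted p = 0.0027, edgeR), and without WT mitotic replicate 2 the adjusted p was 0.0753. The log2 change of -2.86 was then -2.31, and it was -3.55 without WT mitotic replicate 1. In S38A cells the gene had 29.9 ± 2.67 CPM in mitotic and 38.9 ± 18.2 CPM in asynchronous libraries, and in S38D cells 22.9 and 21.1 CPM in mitotic and 40.3 ± 6.86 CPM in asynchronous libraries (SD, n = 2 each). Neither mutant's change passed the test (adjusted p = 0.64 and 0.2, edgeR). The difference of the WT change from the mean of the mutants was -2.26 ± 0.83 (SE) and did not pass either (adjusted p = 0.484, edgeR), so the fall was not shown to differ between WT cells and the mutants. Both falling genes had at most 11 reads in a WT library, and DESeq2 gave neither an adjusted p.

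**Figure D3:**
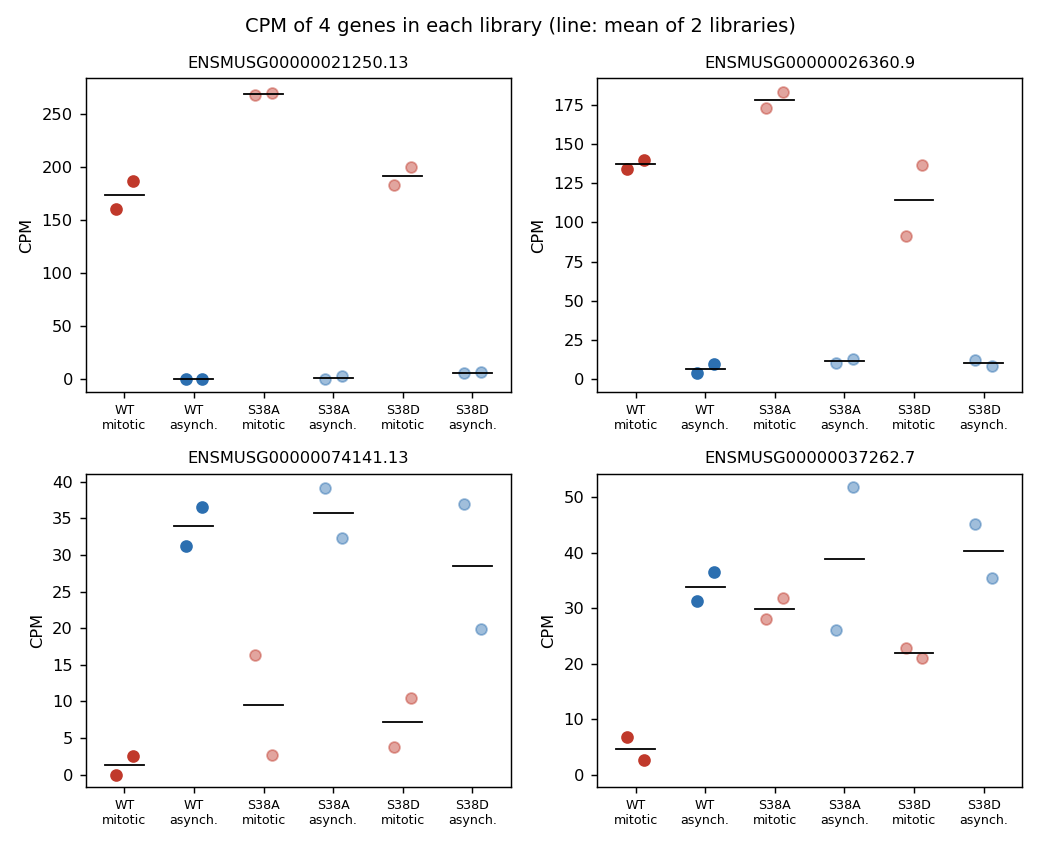
Each panel shows 1 gene, with a point for each of the 2 libraries of a group in CPM and a line at their mean, mitotic groups in red and asynchronous groups in blue, and the mutants in paler colours. The upper genes were high in every mitotic library, and ENSMUSG00000037262.7 was below 7 CPM in the 2 WT mitotic libraries and at 21.1 CPM or more in every other library.

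The genes that changed in WT cells were followed into the mutant libraries, which are not part of the WT contrast but entered the same filter and estimate of spread. Together, the 611 genes called higher in WT held 18.9 and 18.5% of coding reads in S38A mitotic libraries, against 12.2 and 12.4% in S38A asynchronous libraries. In S38D cells they held 24.1 and 24.3% in mitotic libraries, against 14.7 and 15.4% in asynchronous ones. The 620 genes called lower in WT held 16.9 and 17.0% in mitotic and 24.5 and 24.4% in asynchronous S38A libraries. In S38D cells they held 12.6 and 12.5% in mitotic and 21.5 and 20.5% in asynchronous libraries. In each mutant, both mitotic libraries lay on the same side of both asynchronous ones as in WT cells.

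The genes with the largest changes in WT cells mostly moved the same way in the mutants. Of the 24 genes at least 4-fold higher in WT, 24 had a positive log2 change in S38A and 23 in S38D cells, and of the 19 at least 4-fold lower, 19 had a negative one in S38A and 18 in S38D cells. Of all genes tested, 49.4% had a positive and 50.6% a negative log2 change in S38A cells, and 48.3% a positive and 51.7% a negative one in S38D cells. The 24 genes at least 4-fold higher in WT had a median log2 change of 2.43 there, 1.60 in S38A and 1.52 in S38D cells. These genes were chosen by the size of their WT change, so the WT median is not comparable with the others. Of the 24, 17 were called higher in S38A cells (9.03% of all genes tested), 16 in S38D cells (10.6%) and 15 in both (5.11%). The 19 genes at least 4-fold lower in WT had medians of -1.20 in S38A and -0.95 in S38D cells, and 7 of them were called lower in S38A cells (9.59% of all genes tested), 10 in S38D cells (10.9%) and 6 in both (5.26%). Of the 541 genes that changed at least 2-fold in WT, 2 had a change that differed from the mean of the mutants by the test of that difference. That test was passed by 0.239% of all genes tested. The median SE was 0.40 for the difference and 0.33 for the WT change, so few calls do not show that the changes were alike.

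Few genes changed with state in WT cells in a way that the test told apart from the mean of the mutants. The WT change minus the mean change of both mutants passed the test for 16 of 6692 genes (0.239% of those tested, edgeR), and 484 had an unadjusted p under 0.05. Of the 16, 10 were called higher and 2 lower in WT mitotic cells, and 4 were not called in WT. The genes were chosen for a WT change unlike that of the mutants, so their mutant values are given as a description. The 10 higher genes in WT changed by 0.42 to 1.40 on the log2 scale, while the mean of the mutants ran from -1.30 to 0.066. In S38A cells 10 of them had a negative log2 change, and in S38D cells 7. The test took the mean of both mutants, so a gene that passed need not differ from each of them. The 16 genes were well covered, with a median of 505 CPM over the WT libraries against 70.3 CPM over all genes tested. The number called was 10 without WT mitotic replicate 1, 8 without WT mitotic replicate 2 and 25 without WT asynchronous replicate 1. The sign of the difference was the same for all 16 in each of these fits. The genes were chosen by that difference and the fits share most libraries, so the shared sign is no independent support.

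**Figure D4:**
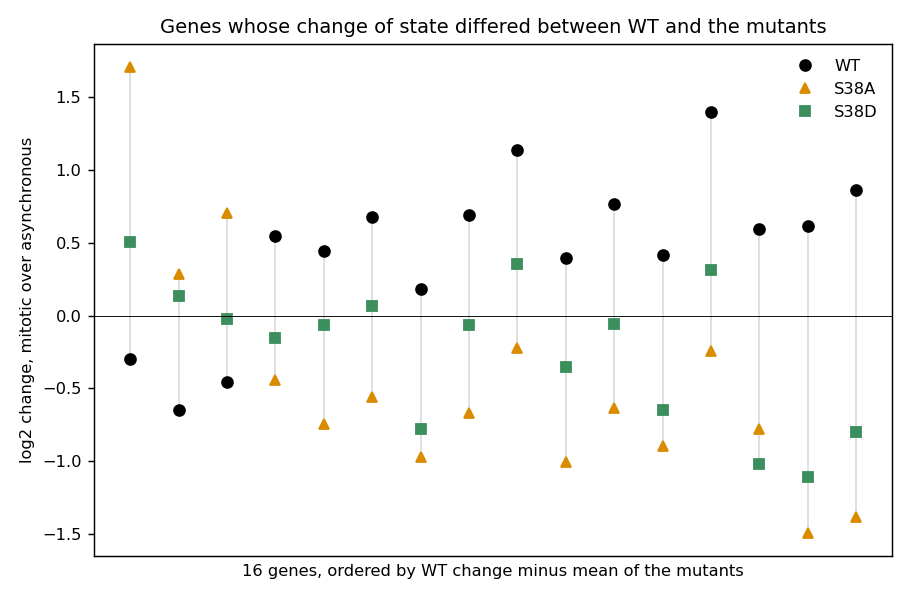
The plot holds the 16 genes whose change of state in WT differed from the mean of the mutants. For each, the log2 change of mitotic over asynchronous cells is shown for WT, S38A and S38D cells. Genes are ordered by the WT change minus the mean of the mutants. The WT point lies highest in the genes at the right, where the difference runs up to 1.95.

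Genes that mark phases of the cell cycle were taken from gene pairs shipped with the scran package, which go by Ensembl ID. Such marker pairs rank genes by which of the pair is more expressed in a phase, and the lists hold genes that lead on balance in 1 phase and trail in the others. The lists were drawn up after these data had been seen and are described without a test. Of 67 G2M genes tested, 19 were called lower in mitotic WT cells (28.4%, against 9.26% of all genes), 4 higher and 44 neither, and the median log2 change was -0.33. Their summed level was 10140 and 10400 CPM in the WT mitotic libraries, against 12530 and 12280 CPM in the WT asynchronous libraries. Both mitotic libraries lay below both asynchronous ones. The name mitotic comes from the labels. The G2M list does not part G2 from M, and its marker pairs were not made from these cells or from footprints. Its lower level in these libraries therefore cannot decide whether the label holds. The share of cells in mitosis was not measured here.

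Of 74 S phase genes, 15 were called lower (20.3%) and 4 higher, with a median log2 change of -0.13 and a summed level of 12480 and 13350 CPM in WT mitotic against 14120 and 14820 CPM in WT asynchronous libraries. The G1 genes went the other way in sum, with 14260 and 14660 CPM in WT mitotic and 13220 and 12730 CPM in WT asynchronous libraries. Of 81 G1 genes, 10 were called higher (12.3%, against 9.13% of all genes) and 6 lower, and the median log2 change was 0.16. The single changes were wide in each list, from -1.66 to 1.43 among G2M genes, -2.06 to 0.88 among S genes and -1.21 to 1.98 among G1 genes.

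Counts and medians both depended on single libraries. Without WT mitotic replicate 1, 9 G2M genes and 6 S genes were called lower, and without WT asynchronous replicate 2 these counts were 10 and 8, and over the 4 fits that each left out 1 WT library the G2M median ran from -0.43 to -0.27. The S median was -0.066 without WT mitotic replicate 1 and -0.24 without WT mitotic replicate 2. The S count was 8 without WT mitotic replicate 2 and 9 without WT asynchronous replicate 1. DESeq2 called 13 G2M and 6 S genes lower, and 5 G1 genes higher. The G1 median was 0.064 without WT mitotic replicate 2 and 0.094 without WT asynchronous replicate 2.

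In the mutants the G2M list had medians of -0.36 in S38A and -0.35 in S38D cells, and the S list of -0.10 and -0.25. The summed level of both lists was lower in both mitotic than in both asynchronous libraries of each mutant. The G1 list had medians of 0.091 in S38A and 0.061 in S38D cells, but its summed level did not follow that of WT cells. It was 14040 and 13670 CPM in S38A mitotic against 14580 and 13980 CPM in S38A asynchronous libraries. In S38D cells it was 14180 and 14500 CPM in mitotic against 13350 and 14780 CPM in asynchronous libraries. These G1 sums overlapped between the states in both mutants. No G2M or S gene, and 1 G1 gene, differed in its change between WT and the mean of the mutants by the test. Only 0.239% of all genes tested passed it, so counts in lists this short say nothing about the lists.

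**Figure D5:**
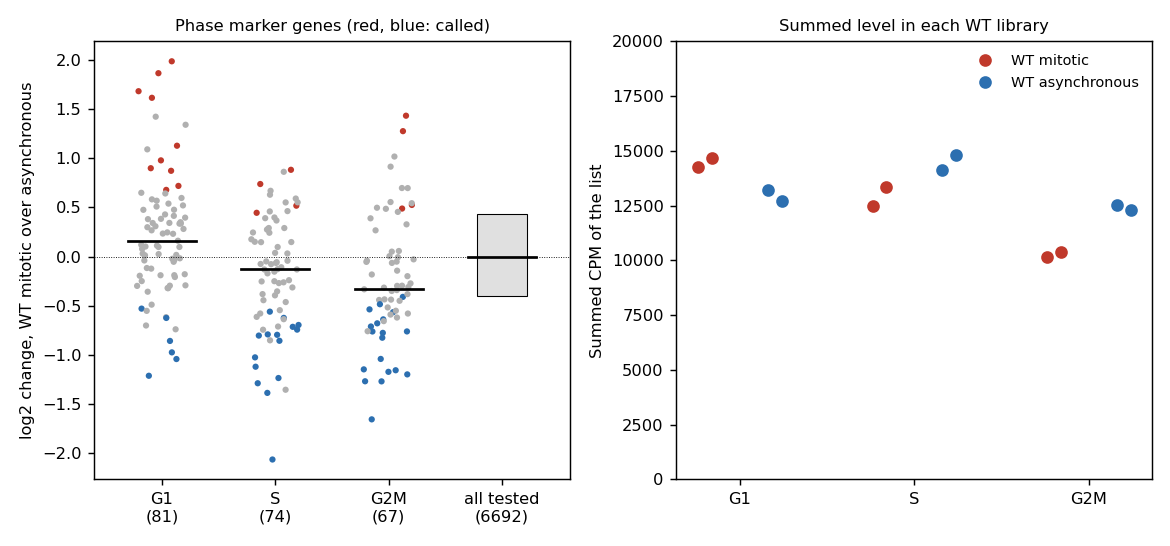
The left plot shows the log2 change of WT mitotic over asynchronous cells for each marker gene of G1, S and G2M phase, with called genes in red (higher) and blue (lower), medians as black lines, and a box for the interquartile range of all 6692 genes. The right plot gives the summed CPM of each list in each of the 4 WT libraries, where G2M sums were 10140 and 10400 in mitotic and 12530 and 12280 in asynchronous libraries.

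Mitotic WT libraries also held more reads outside the counted coding sequence. Such reads were 34.6 and 29.0% of uniquely aligned reads in WT mitotic libraries, against 22.97 and 19.2% in WT asynchronous libraries, with no overlap. Alignments to more than 1 place were 73.0% in both WT mitotic libraries, and 68.4 and 66.3% in WT asynchronous libraries, of these alignments and uniquely aligned reads together. Both shares move with the state, and their part in the gene changes was not tested.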

How the data were processed

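Footprints were cloned from fragments between markers of 27 and 30 nt after harvest with cycloheximide, per the labels' protocols. The authors deposited a count table per library, as whole reads for each of 22520 Ensembl gene IDs and not normalized, followed by 5 summary rows. The summary rows entered neither library sizes nor tests, and the shares of reads outside features and of multiple alignments are given with the results. Tools listed in the submitters' processing notes include STAR 2.5.3a as an aligner and HTSeq 0.9.1 as a read counter, with Bowtie2 2.3.2, and the build mm10. Their parameters, the strand setting and the handling of identical reads are not given in the sources used here. Counting intervals and floors therefore hold for counting error alone. Ambiguous reads and alignments to several places are listed in the summary rows, so genes that overlap or nearly match may lose reads. Only the deposited files' naming says that counts are over coding sequence. No batch is given.

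Counts were tested with edgeR 4.0.16 in R 4.3.3 (quasi-likelihood F test, TMM scaling, filterByExpr with a minimum count of 10) across all 6692 genes kept. All 12 libraries, in 6 groups, entered the model, since 2 libraries alone give a poor estimate of spread. Genes with a Benjamini-Hochberg adjusted p under 0.05 were called. Values marked SE are the absolute log2 change over the square root of F. They are approximate and not standard errors fitted for the contrast. CPM use the reads of tested genes and TMM scaling. Log2 CPM used a prior count of 2, and genes were well covered at a mean of 50 CPM. Ratios use all coding reads of a group, with exact binomial intervals. Phase lists came from scran 1.30.0.

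Members and lists were chosen with earlier results of these data known. The 35 gene lists written by symbol, the promoter motifs and protein lengths could not be used, because 0 IDs matched the reference table. Named genes were the largest rises and falls with an adjusted p under 0.05, a mean of at least 10 CPM and groups that did not overlap, reduced to 2 IDs in each direction. The alternatives were DESeq2 1.42.0, other scaling and filters, a fit of WT libraries alone, the replicate number as a block, and leaving out each WT library.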

Additional observations from a re-analysis of the deposited data

Results flagged for a closer look

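The mitotic change differed between WT cells and the mean of both mutants in 16 genes by the test of the difference itself. The difference ran from 0.80 to 1.95 in size on the log2 scale, and the adjusted p from 2.97e-10 to 0.041 (edgeR). The gene with the smallest p had log2 changes of 0.62 in WT cells, against -1.49 with S38A and -1.11 with S38D, at a mean of 481 CPM in WT libraries.

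Data outside the counted coding sequence also moved with the state. Reads outside counted features averaged 31.8 ± 4.00% of uniquely aligned reads in WT mitotic libraries, above the 21.1 ± 2.67% of WT asynchronous libraries (SD, n = 2 each). In S38A cells the shares were 26.5 ± 1.37% in mitotic and 24.02 ± 2.60% in asynchronous libraries, and in S38D cells 28.1 ± 0.332% and 19.9 ± 2.69% (SD, n = 2 each). The 2 S38A mitotic libraries, at 27.5 and 25.6%, overlapped the asynchronous ones at 25.9 and 22.2%. Alignments to more than 1 place averaged 73.0 ± 0.0283% in WT mitotic and 67.3 ± 1.47% in WT asynchronous libraries (SD, n = 2 each).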

How the results depend on the processing

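The number of genes called between WT mitotic and asynchronous cells was 1231, and 1088 to 1236 under other scaling, another filter, WT libraries alone or a block. DESeq2 called 608 (260 higher, 348 lower). All 608 were among the 1231, of which 1031 had an adjusted p from DESeq2. No called gene changed sign under any alternative, but the alternatives reuse the same reads for genes chosen by their change. Leaving out 1 library gave 673 to 959 genes, of which 624 to 841 were among the 1231, and the lone library was then assumed to vary like the other groups. The difference between WT and the mutants gave 14 to 18 genes under the other settings and 8 to 25 on leaving out 1 WT library. With the replicate number as a block the counts were 1196 and 15 genes, and 1209 and 15 with the block within genotype. The labels state no pairing of libraries by replicate number. Same-numbered WT libraries deviated with a correlation of -0.092 across genes. This cannot decide whether they were paired, since each group gives a single difference between replicates. Depth limits low genes most, as 3 reads are 7.77 to 11.7 CPM in a WT library.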

Other observations

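Footprints found in 1 state only were few and mostly rare. Over the 2 WT mitotic libraries together 699 gene IDs had a read and none in the WT asynchronous libraries, and 500 had a read in the asynchronous libraries alone. The mitotic libraries were deeper, with 693346 against 561162 coding reads in all. With at least 10 reads in 1 state and 0 in the other, 7 genes were found in mitotic cells and 1 in asynchronous cells. The highest count of such a gene was 120 reads in mitotic cells, that of ENSMUSG00000021250.13, and 11 reads in asynchronous cells.

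The 100 genes with the most footprints changed in both directions. In WT mitotic cells 32 of them were called higher, 28 lower and 40 were not called, and their median log2 change was 0.026. Among all genes tested 9.13% were called higher and 9.26% lower. Calls grew with the level, to 55.9% of genes at 500 CPM or more, and these 100 genes had at least 999.5 CPM. Their number of calls is therefore not particular to them. At least a 2-fold rise was seen in 4 and at least a 2-fold fall in 8, with changes from -1.58 to 1.48 on the log2 scale. The 100 most abundant genes of each library held 20.2 and 20.7% of coding reads in WT mitotic and 20.4 and 20.0% in WT asynchronous libraries, so this share overlapped between the states.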
